A study of Mus musculus with 19 samples.

Results

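Lipoprotein lipase, encoded by *Lpl*, and 6 genes that control its activity or take up its products were followed over 19 RNA-Seq libraries of mouse tissue. The 7 genes were *Lpl*, *Gpihbp1*, *Lmf1*, *Angptl4*, *Angptl8*, *Cd36* and *Vldlr*. They were found by their listed symbols, and all 7 were present in each of the 3 expression tables, out of 55740 genes in all. Lipoprotein lipase hydrolyses the triglycerides of chylomicrons and very low density lipoproteins at the surface of capillary endothelium, and fat, heart and skeletal muscle are its main sites. The enzyme matures in the endoplasmic reticulum of the parenchymal cell with the help of LMF1, is carried across the endothelium by GPIHBP1, and is inhibited by ANGPTL4 and with the help of ANGPTL8. The released fatty acids enter cells in part through CD36, and VLDLR binds triglyceride-rich lipoproteins.

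The libraries came from 7 tissues of wild-type (WT) C57BL/6J mice with 1 library each, and from inguinal white adipose tissue (iWAT) and brown adipose tissue (BAT) of WT and MCK-Musclin mice with 3 libraries per group and tissue. MCK-Musclin mice carry a transgene in which the muscle creatine kinase promoter drives the peptide hormone Musclin (gene *Ostn*) in skeletal muscle, on a C57BL/6J background, and which of the founder lines was sequenced is not given in the sources used here. The mice of the iWAT and BAT libraries were 5-month-old males on chow, and both genotypes had been kept at 8 °C for 1 week, so that the genotypes were compared in the cold alone. The age and housing of the tissue donors and the depot of the white adipose library are not given in the labels. The study's reporting form describes the RNA samples of a genotype as coming from independent animals, and the labels number the libraries without naming the animals.

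Levels are given in FPKM, the fragments of a gene scaled to its exon length and to the size of the library, so levels of different genes can be compared per length. Each of the 3 tables was normalized on its own, so levels of different tables were set side by side without a test. The summed FPKM ranged from 393682 to 711437 over the 7 tissues, from 364710 to 384104 in iWAT and from 676362 to 720852 in BAT. The steps between low values put the depth of the BAT libraries at 0.89 to 1.11 times that of WT library 1, and no depth could be derived for iWAT. Markers of the labelled organ were highest in the library of that organ for liver, heart, small intestine, brain and tibialis anterior (TA) muscle. The 9 general adipocyte markers summed to 15519 FPKM in white and 7190 in brown adipose tissue, against 324.7 or less in the other 5 tissues, and all 9 were detected in the 12 adipose libraries. In BAT, *Ostn* was listed at 0 for every WT library and had 37.9, 31.6 and 30.3 FPKM with the transgene. In iWAT it had 0, 0 and 0.225 FPKM in WT, and 5.17 and 4.21 FPKM in MCK-Musclin libraries 2 and 3. It is listed at 0 in the library labelled MCK-Musclin 1. The skeletal muscle markers summed to 8.05 FPKM in that library, against 95.4 and 106.7 FPKM in MCK-Musclin libraries 2 and 3. The transgene is driven in muscle, so the label of this library cannot be checked from *Ostn*. The log2 fold changes of the 7 genes in iWAT are also given without the library labelled MCK-Musclin 1.

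Across the 7 tissues, *Lpl* was highest in white adipose tissue with 1369.6 FPKM, followed by 533.1 in heart, 402.3 in brown adipose tissue and 56.3 in TA muscle. It ranged from 0.597 to 5.13 FPKM in small intestine, brain and liver. White adipose tissue thus held 57.8% of the *Lpl* signal summed over the 7 libraries and stood 2.57-fold above heart (ratio of FPKM + 1), which was 1.21-fold with median-ratio scaling and 4.13-fold with FPKM rescaled to TPM, and *Lpl* was its 27th most abundant transcript. Heart stood 9.33-fold above TA muscle. These tissue values rest on 1 library each and have no replicate check, so neighbours in the order such as heart and brown adipose tissue cannot be told apart.

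Over the 7 tissues, *Gpihbp1* had a pattern near that of the enzyme (Pearson correlation with *Lpl* of log2(FPKM + 1) 0.89), and *Lmf1* did not (-0.10). *Gpihbp1*, whose product is anchored on capillary endothelial cells, had 45.3 FPKM in white and 42.2 in brown adipose tissue, a ratio of 1.07, then 10.4 in heart, 8.76 in TA muscle and 8.10 in liver, and it is listed at 0 in brain and small intestine. *Lmf1*, the endoplasmic reticulum factor needed for the folding of the lipase, was the most even of the 7 genes. Its levels ran from 6.22 FPKM in TA muscle and 6.74 in heart, both *Lpl*-rich tissues, to 13.8 in brown adipose tissue and 14.7 in liver, where *Lpl* was at 5.13 FPKM.

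Both inhibitors had their highest level outside heart and muscle. *Angptl4*, which dissociates the active enzyme and is known as a gene induced by fasting, had 78.9 FPKM in brown and 36.0 in white adipose tissue, 16.4 in liver, 2.25 in small intestine and less than 0.85 in heart, brain and TA muscle. *Angptl8*, known as a gene induced by feeding and insulin, had 135.3 FPKM in liver, 14.4 in brown adipose tissue, 11.1 in white adipose tissue and 6.91 in small intestine, and at most 0.261 elsewhere, so that liver held 80.5% of its summed signal. Relative to *Lpl* in the same library, the *Angptl4* level was 19.6% in brown fat, 2.63% in white fat, 0.638% in TA muscle and 0.156% in heart. The lipase was thus the far more abundant transcript in each tissue rich in it, and *Angptl4* exceeded it only in liver (320% of *Lpl*) and small intestine (377%) among the 7.

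The uptake genes followed different orders. *Cd36* had 906.4 FPKM in white and 416.4 in brown adipose tissue, 272.3 in heart, 34.8 in TA muscle, 8.79 in liver, 4.56 in small intestine and 0.0174 in brain. Its order over the tissues was that of the summed endothelial markers, which ran from 362.5 FPKM in white adipose tissue through 318.4, 201.2, 94.3, 53.1 and 52.3 to 50.1 in brain. *Vldlr* was the muscle gene of the group, with 40.4 FPKM in TA muscle and 37.9 in heart, followed by 22.9 in brown and 12.3 in white adipose tissue, 9.97 in brain, 0.455 in small intestine and 0.268 in liver.

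**Figure D1:**
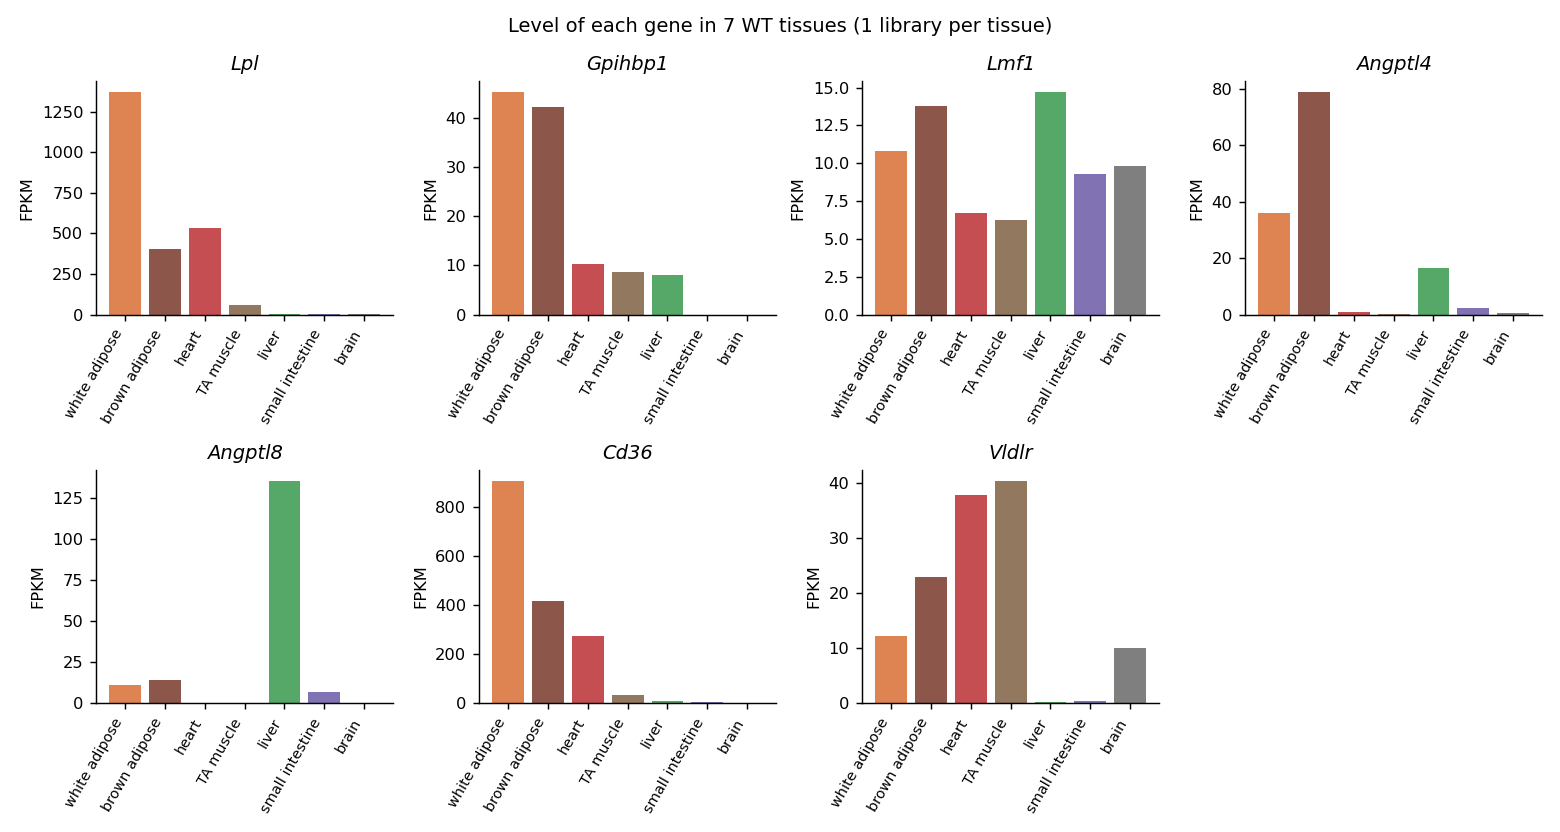
Bars give the FPKM of each of the 7 genes (1 panel per gene, own axis from 0) in 7 WT tissues with 1 library per tissue and no error. *Lpl*, *Gpihbp1* and *Cd36* have their tallest bar in white adipose tissue, *Angptl4* in brown adipose tissue, *Lmf1* and *Angptl8* in liver and *Vldlr* in TA muscle.

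In 4 of the 7 genes (*Lpl*, *Angptl4*, *Angptl8* and *Cd36*) the highest tissue was at least 2-fold above the next, against 34.9% of the 14692 genes that averaged 1 FPKM or more over the tissues. By tissue, 4.4% of these genes were highest in white adipose tissue by at least 2-fold, as *Lpl* and *Cd36* were, 0.796% in brown adipose tissue, as *Angptl4* was, and 4.38% in liver, as *Angptl8* was. White and brown adipose tissue were the highest pair of tissues for *Gpihbp1*, *Angptl4* and *Cd36*, and for 7.51% of all genes. The tissue ratios changed with scaling. With median-ratio scaling *Cd36* was 1.37-fold and *Angptl4* 3.37-fold above the next tissue, and *Gpihbp1* was highest in brown instead of white adipose tissue, by 1.46-fold. Rescaled to TPM, *Cd36* was 3.68-fold, *Gpihbp1* 1.79-fold and *Angptl4* 1.29-fold above the next tissue. The 10 most abundant genes took between 17.0% and 52.4% of the summed FPKM of a library, and their part in these changes was not tested.

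Among all genes, the tissue patterns most like that of *Cd36* were those of *Cdh5* (Pearson correlation of log2(FPKM + 1) 0.993), which encodes the endothelial adhesion molecule VE-cadherin and is 1 of the 8 endothelial markers summed above, *Myct1* (0.992) and *Cd300lg* (0.989). For *Lpl* they were *Sox7* (0.986), *Tm4sf1* (0.982) and *Hsp25-ps1* (0.976), for *Gpihbp1* *Mcat* (0.982), *G0s2* (0.981) and *Cbr4* (0.977), and for *Vldlr* *Fam220a* (0.991), *Igf2* (0.984) and *Acyp2* (0.980). *Phf7* (0.978) was nearest to *Lmf1*, *Dleu2* (0.978) to *Angptl4* and *Mgst1* (0.980) to *Angptl8*. Between the members themselves, *Cd36* and *Lpl* had a correlation of 0.96, *Cd36* and *Gpihbp1* 0.91, *Lpl* and *Gpihbp1* 0.89, and *Lmf1* and *Lpl* -0.10. Each value is over 7 tissues that share a table and its scaling, and is a description. Of the 21 nearest genes, 11 were still among the nearest 3 with a pseudocount of 0.1 and 4 with rank correlation.

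By GRCm38, *Lpl* lies on chromosome 8 (68880491 to 68907448, plus strand), *Gpihbp1* on chromosome 15 (75596628 to 75599481, plus), *Lmf1* on chromosome 17 (25579085 to 25662826, plus), *Angptl4* on chromosome 17 (33773750 to 33781830, minus), *Angptl8* on chromosome 9 (21835510 to 21837347, plus), *Cd36* on chromosome 5 (17781690 to 17888801, minus) and *Vldlr* on chromosome 19 (27216484 to 27254231, plus). All are protein coding. *Angptl8* lies within *Dock6* on the opposite strand, and none of the 7 genes shares an exon base with another gene. In *Lpl* 4.11% of the 50-base stretches of its longest coding transcript also occur in other genes, and in the other 6 none do.

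The RefSeq table of promoters (GRCm38.p6) held 1 window each for *Cd36*, *Angptl8* and *Lmf1* and 2 for *Vldlr*. The 250 bases upstream of the start are shown for *Cd36*, *Angptl8* and the first *Vldlr* start, genes with their highest levels in white adipose tissue, liver and muscle, where these bases are free of annotated exons. They were searched on both strands for the nuclear receptor element AGGTCA, for a direct repeat of it with 1 base between the copies, which binds PPAR factors, for the GC box GGGCGG and for the CCAAT box. Matches are in capitals, and a match on the other strand appears as its reverse complement.
*Cd36*, chr5:17835897-17836146, minus strand: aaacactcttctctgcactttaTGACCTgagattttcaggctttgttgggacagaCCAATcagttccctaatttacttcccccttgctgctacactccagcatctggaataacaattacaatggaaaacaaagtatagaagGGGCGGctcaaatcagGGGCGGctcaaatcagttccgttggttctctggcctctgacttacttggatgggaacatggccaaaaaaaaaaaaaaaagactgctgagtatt
*Vldlr*, chr19:27216234-27216483, plus strand: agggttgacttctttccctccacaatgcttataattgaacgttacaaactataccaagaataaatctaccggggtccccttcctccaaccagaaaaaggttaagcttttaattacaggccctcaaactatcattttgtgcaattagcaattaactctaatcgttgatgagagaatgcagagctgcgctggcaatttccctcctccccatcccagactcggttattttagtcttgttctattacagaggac
*Angptl8*, chr9:21835260-21835509, plus strand: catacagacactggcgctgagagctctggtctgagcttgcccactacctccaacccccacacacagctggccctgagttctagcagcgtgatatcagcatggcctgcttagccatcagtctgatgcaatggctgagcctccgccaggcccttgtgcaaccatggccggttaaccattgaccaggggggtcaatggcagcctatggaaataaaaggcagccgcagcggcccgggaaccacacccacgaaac
Counted from the start, the *Cd36* window, which lies inside the gene, held 1 AGGTCA at -228 on the other strand, 1 CCAAT box at -195 and 2 GC boxes at -109 and -93. The *Angptl8* window and the *Vldlr* window shown held no match. The second *Vldlr* window (chr19:27216770-27217019), which overlaps an exon of the gene and is not shown, held 1 GC box at -42 and 1 CCAAT box at -78, and the *Lmf1* window, which also overlaps an exon, 1 GC box at -108. AGGTCA occurred in 14% of the 32851 windows of this length, the GC box in 32.7%, the CCAAT box in 33.8% and the direct repeat in 0.0335%. GC content was 43.2% for *Cd36* with 3 CpG, 41.6% for the first *Vldlr* window with 5 CpG and 58.8% for *Angptl8* with 8 CpG.

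To ask whether the genes of lipoprotein lipase control differ between genotypes in the cold, WT and MCK-Musclin iWAT were compared. *Lpl* had 1439, 1370.0 and 1305 FPKM in WT libraries 1 to 3 and 1220.5, 1093 and 990.5 FPKM in MCK-Musclin libraries 1 to 3. All MCK-Musclin libraries were below all WT libraries, with means of 1371 ± 67.0 and 1102 ± 115.2 FPKM (SD, n = 3 each). The log2 fold change of FPKM + 1 was -0.32 (standard error 0.123, 95% interval -0.61 to -0.03), with an adjusted p of 0.265 from limma over all genes tested, so that the difference did not pass the threshold of 0.05.

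*Cd36* had 567.3, 633.5 and 591.1 FPKM in WT and 462.8, 534.4 and 512.0 FPKM in MCK-Musclin iWAT. The groups again did not overlap, with means of 597.3 ± 33.6 and 503.1 ± 36.6 FPKM (SD, n = 3 each) and a log2 fold change of -0.25 (standard error 0.107, limma adjusted p = 0.306). *Vldlr* had 13.6, 14.7 and 16.3 FPKM in WT and 14.3, 10.1 and 8.30 FPKM in MCK-Musclin iWAT. Libraries 2 and 3 of the MCK-Musclin group were below every WT library, whereas the library labelled MCK-Musclin 1 lay among them, which gave a log2 fold change of -0.45 (standard error 0.184, limma adjusted p = 0.288). It came to -0.64 when the library labelled MCK-Musclin 1 was left out and to -0.28 when MCK-Musclin library 3 was.

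The inhibitors had the largest differences and the widest spread. *Angptl4* had 14.5, 49.8 and 21.3 FPKM in WT and 49.0, 58.5 and 41.7 FPKM in MCK-Musclin iWAT, and WT library 2 lay within the MCK-Musclin range. Its log2 fold change was 0.95 (standard error 0.396, 95% interval 0.02 to 1.88, limma adjusted p = 0.294), and it came to 1.43 when WT library 2 was left out and to 0.58 when WT library 1 was. *Angptl8* had 64.6, 15.7 and 56.3 FPKM in WT and 13.8, 7.91 and 39.9 FPKM in MCK-Musclin iWAT, with a log2 fold change of -1.18 (standard error 0.672, 95% interval -2.76 to 0.39, limma adjusted p = 0.422). It came to -1.81 when WT library 2 was left out, to -1.79 when MCK-Musclin library 3 was and to -0.69 when MCK-Musclin library 2 was.

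For the transport and folding partners no difference passed the test, and the intervals lay on both sides of 0. *Gpihbp1* had 18.8, 26.7 and 25.9 FPKM in WT and 18.1, 29.8 and 22.8 FPKM in MCK-Musclin iWAT (95% interval of the log2 fold change -0.50 to 0.45, limma adjusted p = 0.963). *Lmf1* had 30.7, 21.0 and 26.2 FPKM in WT and 24.4, 23.0 and 24.4 FPKM in MCK-Musclin iWAT (95% interval -0.43 to 0.23, adjusted p = 0.758). Both differences were small, and their direction turned from lower to higher in MCK-Musclin iWAT when the libraries were centred on adipocyte markers.

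**Figure D2:**
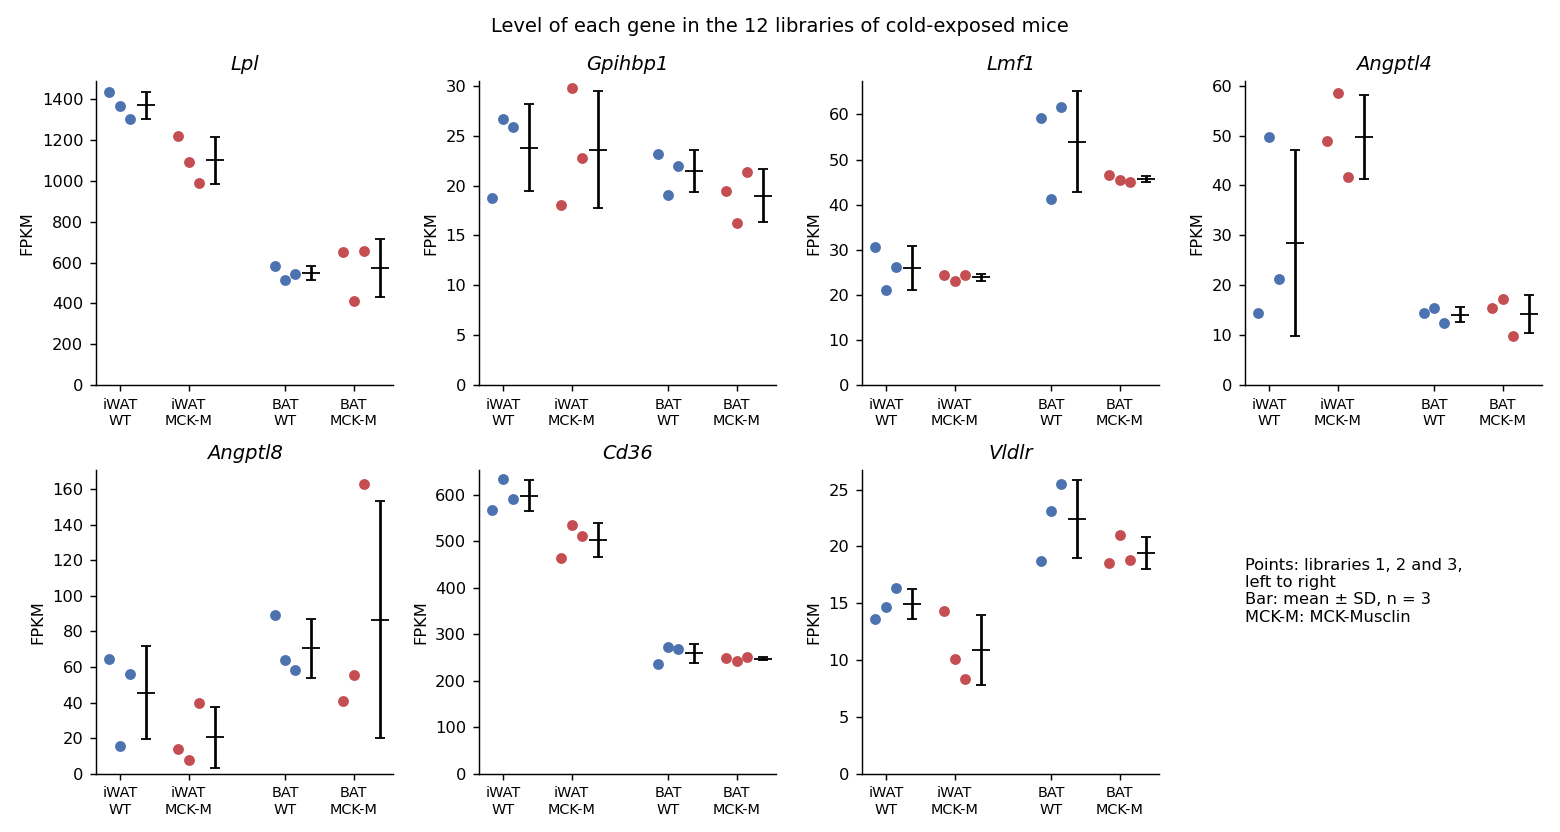
Points give the FPKM of each gene in the 3 libraries of each group (each genotype and fat depot in the cold, with MCK-Musclin written MCK-M on the axis), and black bars the mean with SD (n = 3). *Lpl* and *Cd36* are lower in all 3 MCK-Musclin libraries of iWAT than in all 3 WT libraries, and in BAT the groups of all 7 genes overlap. Levels of iWAT and BAT come from tables normalized separately.

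None of the 7 genes was called at an adjusted p under 0.05 in iWAT, and none of the 12197 genes tested was (0.0%). At an unadjusted p under 0.05, 3 of the 7 passed in limma (*Lpl* and *Vldlr*, both lower, and *Angptl4*, higher), against 16.5% of all genes, 3.44% lower and 13.1% higher. Only *Angptl4* also met the cutoff used by the study, a log2 fold change beyond 0.5 at that p, which 5.04% of all genes did in the higher direction. The study applied its cutoff to DESeq2 results. Here it was applied to the limma fit of log2(FPKM + 1), so the genes that pass are not those of the study. Of the 7 genes, 6 had a log2 fold change below 0 against 38.7% of all genes, with a median of -0.25 against 0.06 over all genes. With median-ratio scaling 6 of the 7 were below 0 against 51.3% of all genes, centred on endothelial markers 6 against 53.7%, and centred on adipocyte markers 4 against 14.0%. Groups that did not overlap, with MCK-Musclin lower, were found for 2 of the 7 against 5.44% of all genes, and with MCK-Musclin higher for 0 of the 7 against 17.9%. The count of 3 was 2 without WT library 2 (*Angptl4* and *Angptl8*) or without the library labelled MCK-Musclin 1 (*Lpl* and *Vldlr*). It was 1 without WT library 3 (*Lpl*) or MCK-Musclin library 3 (*Angptl8*), and 0 without WT library 1 or MCK-Musclin library 2. The genes that passed were thus not always among the 3. Without the library labelled MCK-Musclin 1 the log2 fold changes were -0.40 for *Lpl*, -0.19 for *Cd36*, -0.64 for *Vldlr*, 0.95 for *Angptl4*, -1.06 for *Angptl8* and -0.11 for *Lmf1*, and *Gpihbp1* turned from -0.0256 to 0.14, with limma adjusted p between 0.193 and 0.777.

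Markers of several cell types differed between the same libraries. The summed general adipocyte markers were 16370 to 17581 FPKM in WT and 14696 to 16643 in MCK-Musclin iWAT, with all 9 below 0 in log2 fold change (median -0.14). *Lpl* amounted to 8.79%, 7.79% and 7.45% of this sum in WT, against 8.31%, 7.11% and 5.95% with the transgene, and these shares overlapped, as did those of *Cd36*. Centred on the adipocyte markers, the log2 fold change was -0.14 for *Lpl*, -0.0708 for *Cd36*, -0.27 for *Vldlr*, -1.0 for *Angptl8* and 1.13 for *Angptl4* (limma adjusted p = 0.0881, the lowest of any of the 7 genes under any alternative), while the median over all genes was 0.24. The 8 endothelial markers summed to 253.0 to 279.4 FPKM in WT and 244.4 to 293.9 in MCK-Musclin iWAT, and *Cd36* amounted to 224% to 228% of them in WT and 179% to 189% in MCK-Musclin libraries, without overlap. In BAT the same ratio was 142% to 151% in WT and 154% to 159% in MCK-Musclin libraries, also without overlap and in the opposite direction. Centred on the endothelial markers, the *Cd36* log2 fold change was -0.33 in iWAT (limma adjusted p = 0.412) and 0.0464 in BAT (adjusted p = 0.917). The share of all genes that separate in such a ratio was not determined. By FPKM alone, 23.3% of all genes in iWAT and 10% in BAT had groups that did not overlap in either direction.

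The 8 brown and beige fat markers summed to 570.6 to 1066 FPKM in WT and 115.6 to 643.3 in MCK-Musclin iWAT. The 7 lymph node markers summed to 203.0 to 290.8 and 372.2 to 475.0 FPKM, without overlap, and the 8 macrophage markers to 515.5 to 552.2 and 546.8 to 760.7 FPKM. The 8 skeletal muscle markers spread over 9.07 to 2557 FPKM in WT, highest in library 3, and 8.05 to 106.7 in MCK-Musclin iWAT. Fewer cells of a type and less RNA per cell cannot be told apart in these bulk samples, and the part of cell composition in the *Lpl*, *Cd36*, *Vldlr* and *Angptl* differences was not tested beyond the centred fits.

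The transcripts of the inhibitors were also expressed as a percentage of the *Lpl* FPKM in the same library. *Angptl4* was 1.01%, 3.64% and 1.63% of *Lpl* in WT and 4.01%, 5.35% and 4.21% in MCK-Musclin iWAT, and these ranges did not overlap, although the smallest two-sided p that an exact permutation test of 3 against 3 can give is 0.1. The FPKM of *Angptl4* itself overlapped, with 49.8 in WT library 2 against 41.7 to 58.5 in MCK-Musclin libraries. *Lpl*, the denominator, was already without overlap, so the ratio is no separate result. The MCK-Musclin values without the library labelled MCK-Musclin 1 were also above all WT values. *Angptl8* was 4.49%, 1.15% and 4.32% of *Lpl* in WT and 1.13%, 0.723% and 4.02% in MCK-Musclin iWAT, which overlapped. These ratios were chosen after their values were seen, and the share of all genes whose ratio to *Lpl* separates the genotypes was not determined. In BAT *Angptl4* was 2.47%, 2.98% and 2.29% of *Lpl* in WT and 2.38%, 4.21% and 1.5% in MCK-Musclin libraries, and *Angptl8* 15.3%, 12.4% and 10.7% against 6.28%, 13.6% and 24.8%, both with overlap.

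In iWAT *Angptl4* and *Angptl8* ran opposite to each other from library to library. The 3 libraries with the most *Angptl8* (WT 1 and 3 and MCK-Musclin 3, 39.9 to 64.6 FPKM) were those with the least *Angptl4* (14.5 to 41.7 FPKM), and the other 3 had 7.91 to 15.7 FPKM of *Angptl8* and 49.0 to 58.5 FPKM of *Angptl4*. Both sets of 3 held libraries of both genotypes. In BAT, MCK-Musclin library 3 had both the most *Angptl8* (163.0 FPKM) and the least *Angptl4* (9.87 FPKM).

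**Figure D3:**
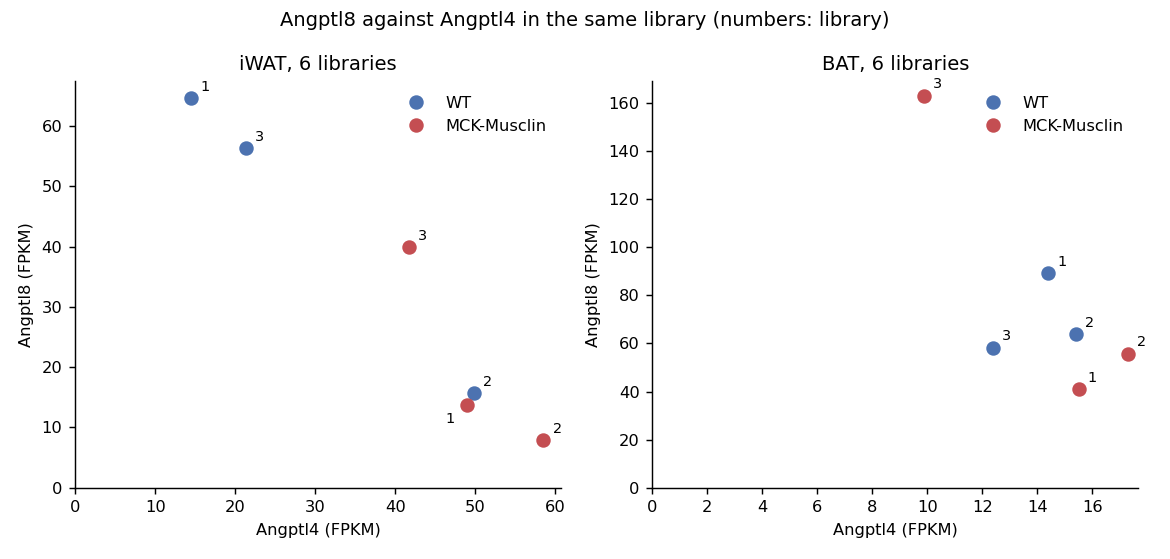
Each point is a library of cold-exposed mice with its *Angptl4* level on the horizontal and its *Angptl8* level on the vertical axis (FPKM, linear axes from 0), numbered as in the text. In iWAT the 6 points fall from WT library 1 (14.5 and 64.6 FPKM) to MCK-Musclin library 2 (58.5 and 7.91 FPKM), with WT library 2 beside the library labelled MCK-Musclin 1.

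In BAT none of the 7 genes separated the genotypes. *Lpl* had 583.4, 516.3 and 542.3 FPKM in WT and 651.4, 410.7 and 658.6 FPKM in MCK-Musclin BAT, with MCK-Musclin libraries on both sides of the WT range (95% interval of the log2 fold change -0.38 to 0.46, limma adjusted p = 0.996). *Cd36* had 235.5, 272.3 and 267.8 FPKM in WT and 249.2, 243.2 and 250.3 FPKM in MCK-Musclin BAT (interval -0.25 to 0.13, adjusted p = 0.975). The *Lpl* interval in BAT included the value of -0.32 found in iWAT.

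*Angptl8* was the most variable of the 7 genes in BAT, with 89.4, 64.0 and 58.3 FPKM in WT and 40.9, 55.8 and 163.0 FPKM in MCK-Musclin libraries. Its log2 fold change was 0.0551 (95% interval -1.02 to 1.13, limma adjusted p = 0.996) and became -0.53 without MCK-Musclin library 3. *Angptl4* had 14.4, 15.4 and 12.4 FPKM in WT and 15.5, 17.3 and 9.87 FPKM in MCK-Musclin BAT, a log2 fold change of -0.0136 (adjusted p = 0.997) whose sign turned under 3 other scalings. For both inhibitors the highest and the lowest BAT library were MCK-Musclin libraries.

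*Vldlr* had 18.7, 23.1 and 25.5 FPKM in WT and 18.5, 21.0 and 18.8 FPKM in MCK-Musclin BAT (log2 fold change -0.19, limma adjusted p = 0.968). *Gpihbp1* had 23.2, 19.1 and 22.0 FPKM in WT and 19.5, 16.2 and 21.4 FPKM in MCK-Musclin BAT (-0.17, adjusted p = 0.968). *Lmf1* had 59.2, 41.2 and 61.7 FPKM in WT and 46.5, 45.4 and 45.1 FPKM in MCK-Musclin BAT (-0.22, adjusted p = 0.968), so that the 3 MCK-Musclin libraries lay close together within the WT range.

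At an unadjusted p under 0.05, 0 of the 7 genes passed in limma in BAT, against 4.89% of the 10893 genes tested, and at an adjusted p under 0.05 only 1 gene did (0.00918%). Of the 7, 5 had a log2 fold change below 0 against 52.3% of all genes (3 against 22.8% centred on adipocyte markers and 3 against 27.1% centred on endothelial markers), and 0 had groups that did not overlap against 10%. In the same libraries the endothelial markers summed to 165.3 to 184.7 FPKM in WT and 156.7 to 160.8 in MCK-Musclin BAT, and the skeletal muscle markers to 318.5 to 511.5 and 519.9 to 1238 FPKM, both without overlap. Adipocyte markers summed to 8141 to 8952 and 7667 to 8460 FPKM. The part of these cell types in the BAT values was not tested beyond the centred fits, in which *Angptl4* and *Cd36* turned to a small positive difference.

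The genotype difference of iWAT minus that of BAT was tested in a fit over the 12 libraries, taken as independent. Whether iWAT and BAT libraries came from the same animals is not given in the labels, and the fit makes no allowance for it. It was -0.36 for *Lpl* (95% interval -0.87 to 0.16, limma adjusted p = 0.636), -0.19 for *Cd36* (-0.48 to 0.10, 0.66), -0.26 for *Vldlr* (-0.78 to 0.26, 0.753) and -1.24 for *Angptl8* (-3.24 to 0.77, 0.686). For *Angptl4* it was 0.96 (-0.11 to 2.04, adjusted p = 0.528). *Gpihbp1* had 0.14 and *Lmf1* 0.12, with adjusted p of 0.902 and 0.909. None of the 7 differed between the depots at an unadjusted p under 0.05, which 10.1% of the 9757 genes tested did, and none of those genes did at an adjusted p under 0.05 (0.0%). A difference between the depots in the response of these genes was therefore not shown.

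The depot differences moved with single libraries. Left out one at a time, they gave -0.58 to -0.24 for *Lpl*, 0.59 to 1.45 for *Angptl4*, -1.86 to -0.65 for *Angptl8*, -0.23 to -0.12 for *Cd36* and -0.45 to -0.10 for *Vldlr*. An unadjusted p under 0.05 was reached for *Lpl* without BAT MCK-Musclin library 2 (-0.58, limma adjusted p = 0.462), for *Angptl4* without iWAT WT library 2 (1.45, adjusted p = 0.478) and for *Angptl8* without it (-1.86, adjusted p = 0.555). It was also reached for *Vldlr* without the iWAT library labelled MCK-Musclin 1 (-0.45, limma adjusted p = 0.419), for *Cd36* centred on endothelial markers (-0.38, adjusted p = 0.514), and for *Angptl4* centred on adipocyte markers (1.01, adjusted p = 0.762).

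**Figure D4:**
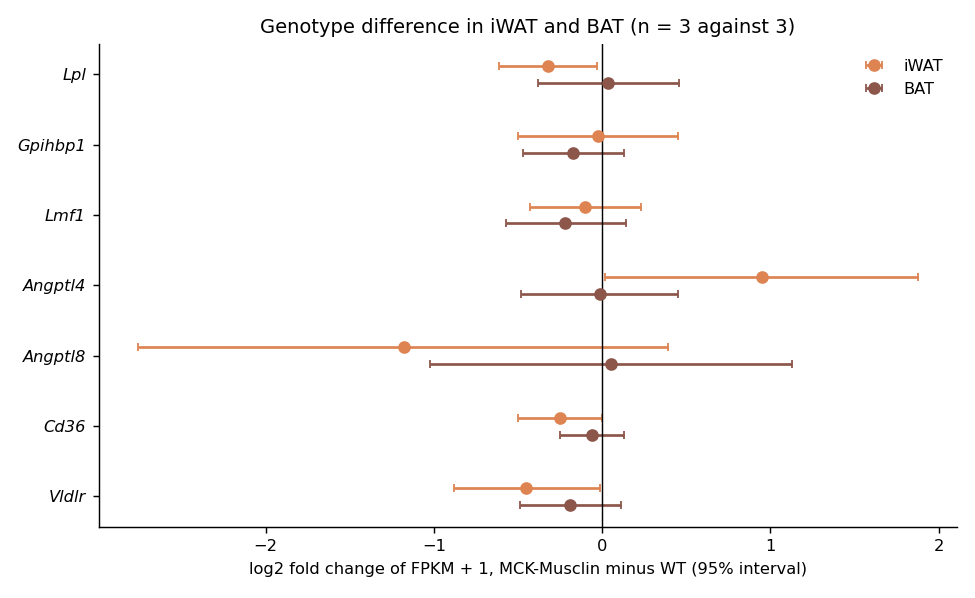
Points give the log2 fold change of FPKM + 1 (MCK-Musclin minus WT, n = 3 against 3) of each gene in iWAT and BAT, and lines the 95% interval of the limma fit. The *Lpl* and *Vldlr* intervals in iWAT end at -0.03 and -0.01, the *Angptl4* interval begins at 0.02, the intervals of *Angptl8* are the widest, and every BAT interval includes 0.

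Set beside the single WT libraries of the tissue table, the cold WT libraries of BAT had other levels of the inhibitors and of *Lmf1*. *Angptl4* was 78.9 FPKM in brown adipose tissue of that table and 12.4 to 15.4 in cold WT BAT, *Angptl8* 14.4 and 58.3 to 89.4, and *Lmf1* 13.8 and 41.2 to 61.7 FPKM. For white adipose tissue and cold WT iWAT, *Lmf1* was 10.8 and 21.0 to 30.7 FPKM, *Cd36* 906.4 and 567.3 to 633.5 FPKM, and *Lpl* 1369.6 and 1305 to 1439 FPKM. The tables were normalized separately and the tissue library has no replicate, so these pairs were not compared by a test, and temperature, depot and library cannot be told apart.

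A further 45 genes of lipid uptake were followed as 4 lists: partners and inhibitors of the lipases, lipoprotein receptors, genes of fatty acid uptake and trapping, and transcription factors of lipid uptake. Across the 7 tissues, 18 of the 45 were highest in white adipose tissue (21.3% of all genes were), 13 in liver (8.52%), 9 in small intestine (27.9%), 2 in brown adipose tissue (5.66%), 2 in brain (27.5%), 1 in heart (3.51%) and 0 in TA muscle (5.59%). *Apoa5*, an activator of the enzyme, had 145.2 FPKM in liver against 0.315 in white adipose tissue. *Apoc2*, the cofactor that the enzyme needs, had 176.5 FPKM in small intestine and 145.8 in liver, and 0.934 in white adipose tissue. In the single libraries of white and brown adipose tissue, heart and TA muscle, the *Lpl*-rich tissues, both were thus at 0.934 FPKM or less. In cold iWAT, normalized separately, *Apoc2* had 1.86 to 3.37 FPKM in WT and 1.91 to 4.61 FPKM in MCK-Musclin libraries.

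In iWAT 41 of the 45 genes were tested, none had an adjusted p under 0.05, and 7 had an unadjusted p under 0.05 in limma, against 16.5% of all genes. Of the 7, 5 were lower and 2 higher, against 3.44% and 13.1% of all genes. The 41 had a median log2 fold change of -0.02, and 3 had groups that did not overlap with MCK-Musclin lower (5.44% of all genes) and 3 with MCK-Musclin higher (17.9%). *Fabp3*, the fatty acid binding protein of heart and brown fat, had the largest difference, with 18.4, 52.1 and 103.6 FPKM in WT and 21.2, 6.83 and 2.14 FPKM in MCK-Musclin iWAT (log2 fold change -2.54, standard error 0.802, limma adjusted p = 0.2). The groups overlapped through WT library 1 and the library labelled MCK-Musclin 1. The order of the iWAT libraries in *Fabp3* was that of the summed brown and beige fat markers. Over the tissues *Fabp3* had 1450.8 FPKM in heart, 705.1 in brown adipose tissue and 196.3 in TA muscle. WT library 3, the highest in *Fabp3*, also had the most skeletal muscle markers (2557 FPKM). The part of cell composition in the *Fabp3* difference was not tested. *Lrp8*, a receptor for apolipoprotein E related to *Vldlr*, had 1.44, 0.773 and 1.15 FPKM in WT and 2.69, 2.57 and 3.53 FPKM in MCK-Musclin iWAT, without overlap and in the opposite direction to *Vldlr* (0.89, adjusted p = 0.143).

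Among the lipase partners, the endothelial lipase gene *Lipg* had 1.89, 2.07 and 1.08 FPKM in WT and 2.74, 2.3 and 4.18 FPKM in MCK-Musclin iWAT (0.60, limma adjusted p = 0.247), and of the proprotein convertases *Furin* was lower and *Pcsk7* higher in all 3 MCK-Musclin libraries, by -0.22 and 0.10 on the log2 scale. Of the receptors, *Sort1* had 37.5, 39.5 and 32.8 FPKM in WT and 28.9, 31.5 and 31.0 FPKM in MCK-Musclin iWAT (-0.25, adjusted p = 0.279), and *Lrp1* was also lower in all 3. Of the 11 uptake and trapping genes, 10 had a log2 fold change below 0, against 38.7% of all genes. Their median was -0.13, close to the -0.14 of the general adipocyte markers, of which all 9 were below 0. The part of adipocyte content in this count was not tested. *Cav2*, a caveolin, was at -0.29 (adjusted p = 0.293), and *Fabp4* of this list is also an adipocyte marker. Of the 10 transcription factors, *Ppara* was at -0.65 (adjusted p = 0.28) and *Srebf1* at -0.40 (0.281), and 6 of 10 were below 0, against 38.7% of all genes. The count of 7 was 2 without MCK-Musclin library 3 and 3 without WT library 3, and 7 genes passed without the library labelled MCK-Musclin 1. In BAT 38 of the 45 were tested, 0 of the 38 passed an unadjusted p under 0.05 in limma (4.89% of all genes), and 0 had groups that did not overlap (10%). Among the pathway genes under 1 FPKM on average, and so not tested, *Apoc2* was lower (0.447 to 1.09 FPKM in WT, 0 to 0.397 in MCK-Musclin BAT) and *Lsr* higher (0 to 0.0695 and 0.119 to 0.215 FPKM) without overlap.

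**Figure D5:**
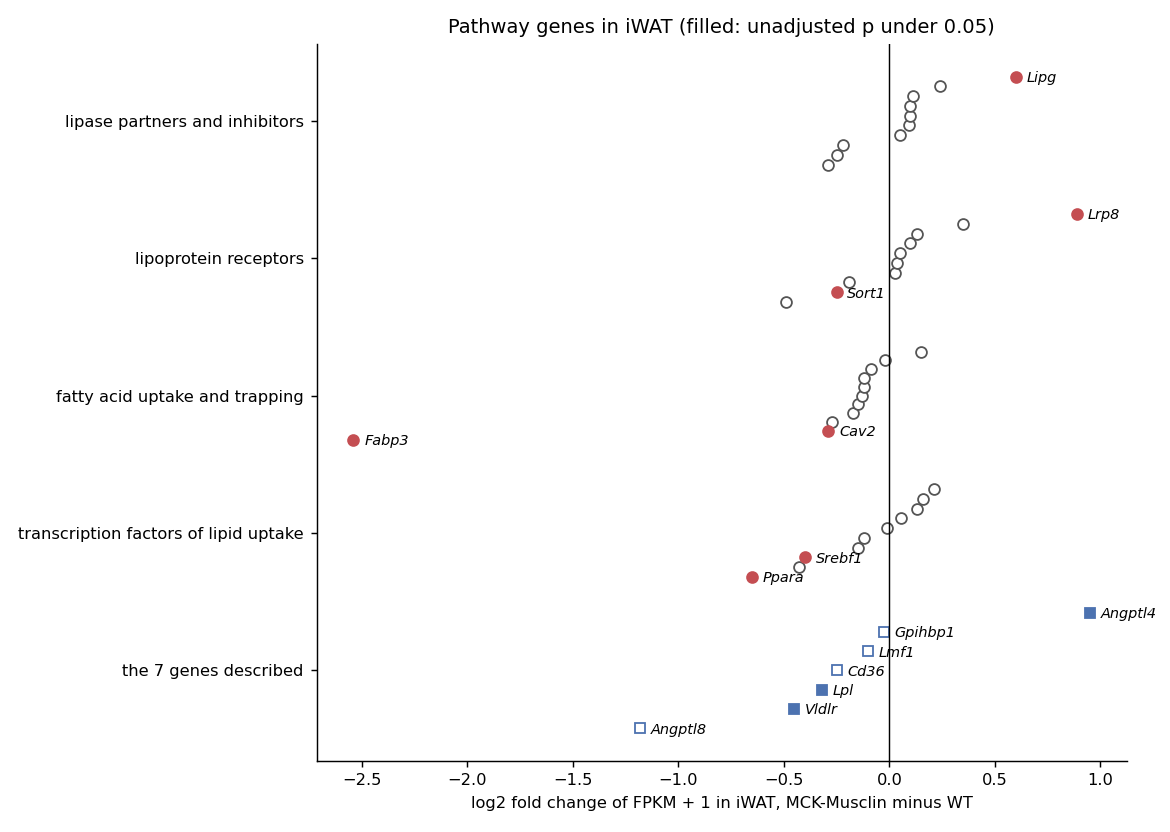
Each circle is a pathway gene and each square 1 of the 7 genes described, placed by its log2 fold change of FPKM + 1 in iWAT (MCK-Musclin minus WT) in the row of its list, spread vertically only for legibility. Filled symbols have an unadjusted limma p under 0.05. *Fabp3* lies far to the left at -2.54, and *Lrp8* and *Angptl4* are the symbols farthest to the right at 0.89 and 0.95.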

How the data were processed

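The study sequenced poly(A) RNA of mouse tissues with random priming on a NovaSeq instrument. The FPKM values deposited for each gene were made by the authors, who cleaned reads with fastp and bowtie2, mapped them to mm10 (GRCm38) with HISAT2 as unstranded data, and quantified genes with StringTie as the methods state, whereas the submitters' processing notes name Cuffdiff. Which of these tools made the deposited values is not settled here. The deposited iWAT table lists 13756 genes, against 55573 for the tissues and 55487 for BAT, and the rule behind its selection is not given in the sources used here; its columns of the authors' own DESeq2 comparison were not used. RNA of white fat was purified by a kit and that of the other tissues by TRIzol. For the tissues and for BAT, 287 lines of the table repeat a gene, and each gene was used once.

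Genotypes were compared on log2(FPKM + 1) in R 4.3.3 with limma 3.58.1, whose eBayes step used a trend, over all genes that averaged 1 FPKM or more in the 6 libraries of a table, which all 7 members passed in iWAT and in BAT, and Benjamini-Hochberg adjustment ran over all of them. A fold change on this scale understates that of low genes. The depot difference was an interaction contrast over the 12 cold libraries. No p-value was given for tissues. On simulated data with the means and spread of iWAT (12192 genes) the fit called 74 of 100 genes changed by 1 on the log2 scale and 93 of 100 changed by 2, with 5.11% false calls. For BAT (10882 genes) it called 79 and 96 of 100, with 2.78% false calls. The simulated noise was independent between genes, and changes were placed only in genes above a minimum level. These shares are therefore not those of genes with a wide spread, such as *Angptl8*, or of libraries that differ in cell composition. No change smaller than 1 was simulated, so the shares do not apply to differences such as the -0.32 of *Lpl* in iWAT. Tables were handled with Python 3.11.15, pandas 2.3.3 and scipy 1.17.1. Alternatives were other pseudocounts, filters, scalings and eBayes settings, a replicate block and leaving out each library.

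The members and lists were chosen with earlier results of these data known. Named genes were the members, the pathway genes past an unadjusted p under 0.05 or with groups that do not overlap, the 3 genes nearest to each member over the tissues, and the cell type markers. The values of 1 pathway gene are not reported here. Ensembl positions of GRCm38 and RefSeq promoter windows were used as given.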

Additional observations from a re-analysis of the deposited data

How the results depend on the processing

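No member passed an adjusted p under 0.05 in limma under any alternative, with adjusted p from 0.0881 (*Angptl4* in iWAT, centred on adipocyte markers) upward. In iWAT *Lpl*, *Cd36*, *Vldlr* and *Angptl8* stayed lower and *Angptl4* higher under every alternative run. Small differences turned sign. Centred on adipocyte markers, *Gpihbp1* and *Lmf1* were 0.15 and 0.0774 in iWAT, and *Angptl4* and *Cd36* 0.12 and 0.0702 in BAT. Centred on endothelial markers, *Angptl4* and *Cd36* were 0.092 and 0.0464 in BAT, and the depot differences of *Gpihbp1* and *Lmf1* -0.0456 and -0.0721. Rescaled to TPM, *Angptl4* was 0.0118 in BAT. The cause was not tested.

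Leaving out single libraries gave ranges of -0.40 to -0.25 for *Lpl* and -0.29 to -0.19 for *Cd36* in iWAT, -0.20 to 0.14 for *Gpihbp1* and -0.24 to 0.0245 for *Lmf1* in iWAT, -0.0796 to 0.26 for *Lpl*, -0.16 to 0.21 for *Angptl4* and -0.53 to 0.46 for *Angptl8* in BAT, and -0.0336 to 0.31 for *Gpihbp1* and -0.0224 to 0.30 for *Lmf1* between the depots. The count of members at an unadjusted p under 0.05 ran from 0 to 2 in iWAT (3 with all libraries) and 0 to 1 in BAT, that of pathway genes from 2 to 7 in iWAT and 0 to 1 in BAT. Genes past the study's cutoff, applied to the limma fit and not to the study's DESeq2 results, ran from 92 to 211 lower and 530 to 844 higher in iWAT. In BAT, where the cutoff of the log2 fold change was 0.3, they ran from 240 to 301 lower and 167 to 274 higher. WT library 1 gave the 211 and 844, and 178 genes were lower without the library labelled MCK-Musclin 1.

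With all libraries 110 genes were lower and 615 higher past the cutoff in iWAT. The split was 187 and 426 with median-ratio scaling, 30 and 1612 centred on adipocyte markers, 219 and 398 centred on endothelial markers, and 71 were lower at a mean FPKM of at least 5. The adipocyte centring moved the median of all genes to 0.24 in iWAT and 0.12 in BAT. In BAT 234 were lower and 202 higher, against 56 and 376 centred on adipocyte markers, 75 and 505 centred on endothelial markers, and 114 and 102 at a mean FPKM of at least 5. The count of members was 1 in iWAT centred on adipocyte markers, that of pathway genes 4 in iWAT at a mean FPKM of at least 5 and 2 in BAT without a filter. Over the tissues, 2 members were at least 2-fold above the next tissue with median-ratio scaling against 4, and 11 and 4 of the 21 nearest genes stayed with a pseudocount of 0.1 and rank correlation.

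Whether replicate numbers pair the libraries is not given in the labels. Deviations of same-numbered libraries had correlations of 0.23, 0.06 and 0.11 in iWAT, against -0.18 to 0.07 for libraries of other numbers. In BAT they were -0.10, 0.00 and 0.01, against -0.08 to 0.08. These values do not settle whether the iWAT libraries are paired. With the replicate block, 3 members and 5 pathway genes passed an unadjusted p under 0.05 in iWAT and 0 of either in BAT. The 3 were *Lpl*, *Angptl4* and *Angptl8* (limma adjusted p = 0.23, from 0.422), and *Vldlr* did not pass (limma adjusted p = 0.338, from 0.288). The depot difference of *Angptl4* passed the unadjusted threshold with the block (limma adjusted p = 0.474, from 0.528). No adjusted call of a member changed. Read depth is unknown for iWAT, which limits what can be said of low values there.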

Other observations

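The opposite course of *Angptl4* and *Angptl8* was noticed in these data, as 1 of 21 pairs of members, and is given as a description. Permutation p-values were computed but are not given, because the pair was picked after its values were seen. Across the 6 iWAT libraries their log2(FPKM + 1) values had a Pearson correlation of -0.89 and a Spearman correlation of -0.94. Without the 2 libraries farthest from the median of *Angptl4* (WT 1 and 3) the Pearson correlation was -0.98 over 4 libraries, and with each genotype centred on its own mean it was -0.84. Across the 6 BAT libraries the correlations were -0.78 and -0.77, and the Pearson correlation was -0.52 without the 2 libraries farthest from the median, MCK-Musclin 3 and WT 3. The libraries of a depot share a table and its scaling.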
